A study of Homo sapiens with 5 samples.

Results

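The lysyl oxidases and the collagen prolyl and lysyl hydroxylases are 10 genes that act on collagen at opposite ends of its path out of the cell. They were taken as the rows named LOX, LOXL1, LOXL2, LOXL3, LOXL4, P4HA1, P4HA2, P4HA3, PLOD1 and PLOD2, out of 43714 gene rows. They were read in Rh41, an established human cell line of fusion-positive alveolar rhabdomyosarcoma, the subtype of this muscle-like childhood tumour that carries a PAX-FOXO1 fusion gene. Cells received either a non-targeting scrambled siRNA (2 libraries, numbered 1 and 3) or an siRNA against H3F3A, a gene for the histone variant H3.3 (3 libraries, numbered 1, 2 and 3), with the lipid carrier RNAiMAX in both arms, for 48 hours. No genotype other than that of the line was involved, and the labels do not say whether libraries of a group came from separate cultures, so the p-values reflect how these libraries scatter, which may be technical variation alone.

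Collagen chains are modified in the endoplasmic reticulum before they fold. Prolyl 4-hydroxylases, whose catalytic alpha subunits are P4HA1, P4HA2 and P4HA3, hydroxylate proline and so stabilise the triple helix. Lysyl hydroxylases, here PLOD1 for helical and PLOD2 for telopeptide lysines, prepare the residues that later take sugars or form cross-links. After secretion, copper-dependent lysyl oxidases (LOX and LOXL1 to LOXL4) oxidise lysine and hydroxylysine side chains of collagen and elastin, which then join into covalent cross-links. LOX, P4HA1 and PLOD2 are among the known targets of the hypoxia-inducible factors, which bind DNA around the core letters ACGTG or GCGTG. They are not a full list of such targets among the members.

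Promoter windows of 5 members are shown, to set 2 cross-linkers beside 3 hydroxylases at their starts. Each window is the 250 bases before the most upstream RefSeq start in the table (GRCh38.p14), 5′ to 3′ on the strand of the gene. The build of these windows is not the one used for the counts, and no count was read by coordinate. Of the 10 members, 8 had an entry, and LOXL2 and P4HA3 had none. Capitals mark ACGTG or its reverse complement CACGT.
LOX, chr5:122078260-122078509, minus strand: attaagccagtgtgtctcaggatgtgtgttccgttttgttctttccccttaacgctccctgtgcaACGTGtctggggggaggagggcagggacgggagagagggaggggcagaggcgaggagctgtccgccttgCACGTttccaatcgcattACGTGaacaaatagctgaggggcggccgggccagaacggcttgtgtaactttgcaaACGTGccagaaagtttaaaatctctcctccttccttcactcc
LOXL1, chr15:73926212-73926461, plus strand: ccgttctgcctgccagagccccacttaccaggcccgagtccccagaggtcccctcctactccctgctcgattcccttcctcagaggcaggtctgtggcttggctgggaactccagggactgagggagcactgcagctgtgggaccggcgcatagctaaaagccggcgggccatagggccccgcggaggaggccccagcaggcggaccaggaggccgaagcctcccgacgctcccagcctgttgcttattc
P4HA1, chr10:73096867-73097116, minus strand: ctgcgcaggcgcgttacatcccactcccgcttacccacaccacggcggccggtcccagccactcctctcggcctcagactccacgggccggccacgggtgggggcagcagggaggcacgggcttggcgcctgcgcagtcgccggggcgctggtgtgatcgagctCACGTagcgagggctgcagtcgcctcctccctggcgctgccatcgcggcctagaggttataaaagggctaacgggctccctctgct
PLOD1, chr1:11934467-11934716, plus strand: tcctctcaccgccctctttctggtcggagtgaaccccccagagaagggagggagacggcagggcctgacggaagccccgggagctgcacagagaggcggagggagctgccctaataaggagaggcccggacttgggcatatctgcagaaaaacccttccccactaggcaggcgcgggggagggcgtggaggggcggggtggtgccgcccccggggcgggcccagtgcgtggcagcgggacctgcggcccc
PLOD2, chr3:146161185-146161434, minus strand: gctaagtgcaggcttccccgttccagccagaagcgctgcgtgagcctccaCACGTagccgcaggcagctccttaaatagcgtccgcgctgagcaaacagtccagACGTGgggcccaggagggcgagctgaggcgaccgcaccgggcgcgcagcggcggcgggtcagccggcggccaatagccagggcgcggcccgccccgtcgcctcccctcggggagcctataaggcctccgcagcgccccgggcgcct
The LOX window held 4 matches to ACGTG on either strand, the PLOD2 window 2 and the P4HA1 window 1, while those of LOXL1, LOXL3, LOXL4, P4HA2 and PLOD1 held 0. Of 35116 windows of 250 bases in the table, 18.5% held this motif. GCGTG or its reverse complement CACGC, which no capitals mark, was matched 2 times in the PLOD1 window and 1 time in that of PLOD2, and 32.2% of all windows held it. GC content was 55.2% in the LOX window, 66.8% in that of LOXL1, 70% for P4HA1, 70.4% for PLOD1 and 72.4% for PLOD2, against a median of 58.0% over all windows. A match is a description of letters and not a measured site.

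The libraries held 28493573 to 30705963 counts assigned to genes. Values are CPM, counts scaled to a common depth, on the TMM-scaled library size, and a gene was called when its Benjamini-Hochberg adjusted p over all 15859 genes tested was under 0.05 in edgeR's quasi-likelihood test. H3F3A, counted under the row H3-3A, stood at 294 and 269 CPM in the scrambled libraries and at 9.38, 10.5 and 8.54 CPM after H3F3A siRNA, so 3.36% of its level remained. H3F3B, the other gene for H3.3, had means of 821 and 819 CPM (log2 fold change 0.00, adjusted p = 0.988). Of 12 markers of myogenic and rhabdomyosarcoma cells, 11 were above 1 CPM, led by FGFR4, and MYF5 was near 0. Their sum was 5872 to 7073 CPM in scrambled and 5126 to 5239 CPM in H3F3A siRNA libraries, with FGFR4 and CHRND called lower and TFAP2B higher. Among markers of other cells, none of 5 epithelial, 2 of 7 fibroblast (PDGFRB and COL1A1), 2 of 5 endothelial and 1 of 6 immune genes were above 1 CPM. The summed fibroblast list was 80.9 to 90.0 CPM in scrambled and 64.8 to 71.5 CPM in H3F3A siRNA libraries, with PDGFRB and COL1A1 called lower, and with DCN, LUM, THY1, FAP and COL6A3 under 1 CPM in both group means. FAP and DCN had higher values in all H3F3A siRNA than in all scrambled libraries, with FAP not called and DCN not tested. The part of either list in the results was not tested. In bulk RNA, fewer cells that express a gene and less of its RNA per cell cannot be told apart.

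Scrambled replicate 1 stood apart in a trend over GC content, the share of G and C bases in the longest transcript. Relative to the average library, its log2 CPM climbed 0.15 for a GC content 10 points higher. The same slope was -0.01 for scrambled replicate 3 and lay between -0.06 and -0.04 after H3F3A siRNA. Of 15859 genes tested, 14377 had a GC value. Their median log2 fold change ran from 0.11 in the lowest of 10 GC classes to -0.23 in the highest. GC content is therefore given beside each tested member, and its fold change is given again with every library's own GC trend removed. Of the markers called above, FGFR4 and TFAP2B were still called with the trend removed. CHRND, PDGFRB and COL1A1 were not (edgeR adjusted p = 0.0736, 0.0527 and 0.195). The marker sums were not corrected for the trend.

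Cross-linkers fell and the hydroxylases among the members were not called. All 4 cross-linkers that passed the filter on low counts (LOX, LOXL1, LOXL2 and LOXL3) were called lower, and none of the 4 hydroxylases that passed it (P4HA1, P4HA2, PLOD1 and PLOD2) was called in either direction. Over all genes tested, 3.2% were called, 2.69% lower and 0.504% higher. The share called lower was 14% in the GC class of LOXL1, 3.48% in that of LOXL2 and LOXL3 and 0.347% in that of LOX. The median log2 fold change was -0.52 for the 4 cross-linkers and -0.08 for the 4 hydroxylases, against 0.01 over all genes tested. LOXL4 and P4HA3 did not pass the filter. Without scrambled replicate 1, 2 cross-linkers were called (LOXL1 and LOXL2), among 82 genes called lower in all. Without H3F3A siRNA replicate 1, LOXL2 alone was called, among 9 genes called lower. Without H3F3A siRNA replicate 2 or 3 the same 2 cross-linkers were called, among 153 and 253 genes called lower, and without scrambled replicate 3 all 4 were, among 1737. Because the members were chosen with results of these data known, these counts describe them and are no test of the family.

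LOXL2, which cross-links collagen IV and fibrillar collagens and is also reported in the nucleus, stood at 478 and 411 CPM in the scrambled libraries and at 293, 294 and 293 CPM after H3F3A siRNA. The 3 H3F3A siRNA libraries were nearly equal and all lay below both scrambled libraries. The means were 445 ± 47.7 CPM (SD, n = 2) and 294 ± 0.712 CPM (SD, n = 3), a 1.51-fold fall (log2 fold change -0.60, SE 0.0779, edgeR adjusted p = 0.000163). With the GC trend removed, at a GC content of 58.2%, the log2 fold change was -0.49 (adjusted p = 4.49e-05). Without scrambled replicate 1 it was -0.49 (adjusted p = 7e-04).

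LOXL1, which acts mainly on elastin, stood at 246 and 193 CPM in the scrambled libraries and at 151, 158 and 144 CPM after H3F3A siRNA. The scrambled libraries differed from each other by more than the H3F3A siRNA libraries did, and the groups did not overlap. The means of 220 ± 37.7 CPM (SD, n = 2) and 151 ± 7.02 CPM (SD, n = 3) gave a log2 fold change of -0.54 (SE 0.0881, edgeR adjusted p = 0.00227). LOXL1 lies at 67.0% GC, in the highest GC class, where scrambled replicate 1 was 0.31 above the mean of all libraries in the fitted trend. With the trend removed its log2 fold change was -0.27 (adjusted p = 0.0122). LOXL1 was no longer called when H3F3A siRNA replicate 1 was left out (adjusted p = 0.084), or with the trend removed and scrambled replicate 1 left out (log2 fold change -0.25, adjusted p = 0.191).

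LOX, the founding member of the family, was much less abundant, with 244 and 246 raw counts in the scrambled libraries and 207, 159 and 163 after H3F3A siRNA. These were 8.37 and 8.29 CPM against 6.94, 5.48 and 5.27 CPM. The scrambled libraries were close together, and H3F3A siRNA replicate 1 lay between them and the other H3F3A siRNA libraries. The log2 fold change was -0.50 (SE 0.132, edgeR adjusted p = 0.0408), with means of 8.33 ± 0.0576 CPM (SD, n = 2) and 5.90 ± 0.906 CPM (SD, n = 3). LOX has a GC content of 39.6%, at which the trend between the groups ran the other way, and with the trend removed its log2 fold change was -0.59 (adjusted p = 0.0204). Its call was lost in 12 of 19 alternatives, among them DESeq2 (adjusted p = 0.0635) and every fit that left out 1 library other than scrambled replicate 3.

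LOXL3, which oxidises collagen and is needed for cartilage and palate formation, stood at 66.5 and 61.9 CPM in the scrambled libraries and at 49.2, 54.8 and 51.4 CPM after H3F3A siRNA. The groups did not overlap. The log2 fold change was -0.31 (SE 0.0792, edgeR adjusted p = 0.0332), and -0.23 with the GC trend removed (GC content 56.4%, adjusted p = 0.0586). The call was lost in 9 of 19 alternatives, including the fits without scrambled replicate 1 (adjusted p = 0.176) and without each H3F3A siRNA library.

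LOXL4 had 4 and 8 counts in the scrambled libraries and 8, 2 and 6 after H3F3A siRNA, and the groups overlapped. These few reads allow no statement on its direction.

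**Figure D1:**
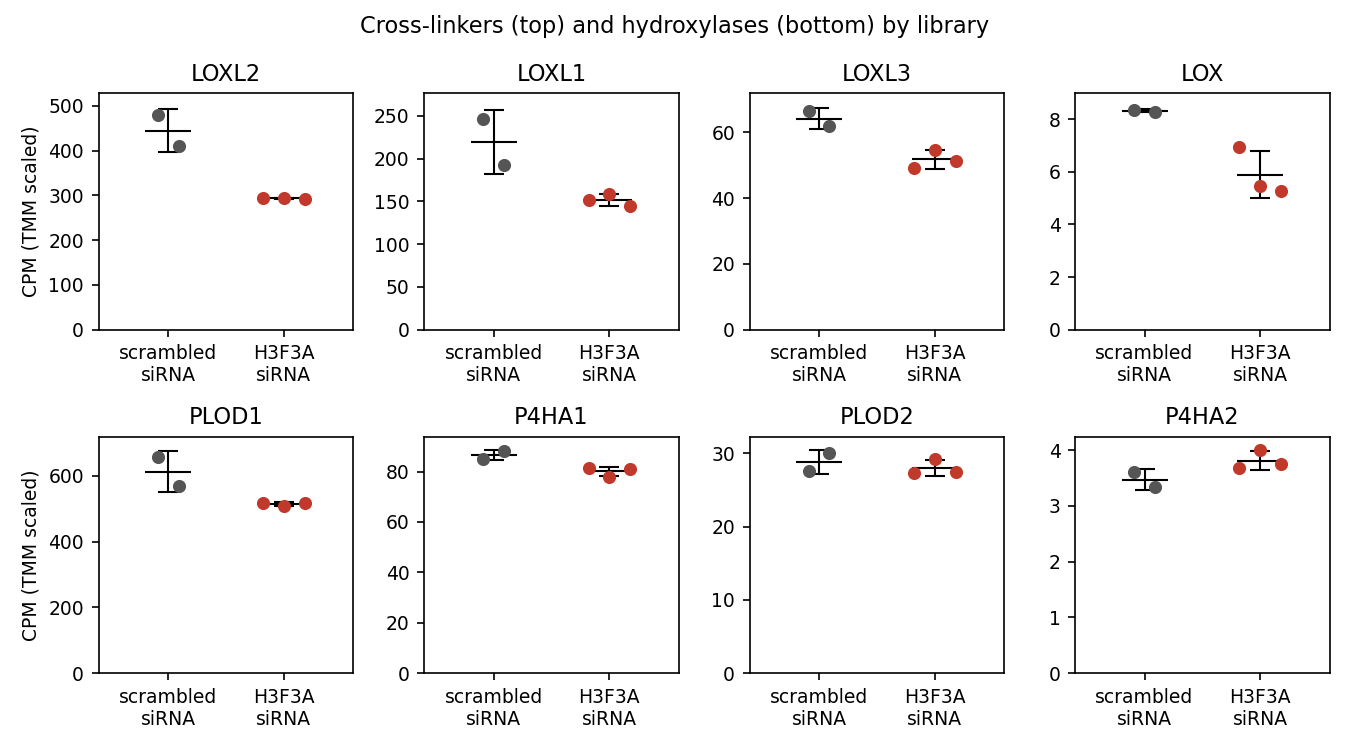
Level of the 8 tested members in each library, in CPM from 0, with the mean and SD (bars) of 2 scrambled and 3 H3F3A siRNA libraries (points). In LOXL2, LOXL1, LOXL3, LOX, PLOD1 and P4HA1 the H3F3A siRNA libraries lie below both scrambled libraries, as in 17.1% of all genes tested. Those of PLOD2 overlap with the scrambled libraries, and those of P4HA2 lie above them, as in 16% of all genes tested.

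Among the hydroxylases, PLOD1 was the most abundant member. It stood at 658 and 569 CPM in the scrambled libraries and at 519, 507 and 519 CPM after H3F3A siRNA. All H3F3A siRNA libraries were lower than both scrambled libraries, but the scrambled libraries differed more from each other than scrambled replicate 3 did from the H3F3A siRNA libraries. The log2 fold change was -0.25 (95% interval -0.41 to -0.09, edgeR adjusted p = 0.0835). With the GC trend removed, at a GC content of 58.6%, it was -0.14 (adjusted p = 0.24). PLOD1 was called lower by DESeq2 (adjusted p = 0.0324) and without scrambled replicate 3 (log2 fold change -0.35, adjusted p = 0.0016), in which scrambled replicate 1 is the only control.

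PLOD2, whose telopeptide hydroxylysines give rise to the stable cross-links of stiff tissue, stood at 27.67 and 30.04 CPM in the scrambled libraries and at 27.3, 29.3 and 27.5 CPM after H3F3A siRNA. The groups overlapped, and the log2 fold change was -0.04 (95% interval -0.22 to 0.13, edgeR adjusted p = 0.853). At a GC content of 37.6% its value with the GC trend removed was -0.15 (adjusted p = 0.333). Its sign changed without scrambled replicate 3 and in the first stranded column.

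P4HA1, the main catalytic subunit of prolyl 4-hydroxylase in many cells, stood at 85.1 and 88.1 CPM in the scrambled libraries and at 81.4, 78.0 and 81.0 CPM after H3F3A siRNA. The groups did not overlap, but the distance between them was small. The log2 fold change was -0.11 (95% interval -0.27 to 0.04, edgeR adjusted p = 0.473). With the GC trend removed, at a GC content of 40.9%, it was -0.20 (adjusted p = 0.0765), and P4HA1 was called lower in 1 of 19 alternatives, the replicate block with the GC trend removed.

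P4HA2, the other widely expressed alpha subunit, stood at 3.6 and 3.33 CPM in the scrambled libraries and at 3.685, 3.997 and 3.753 CPM after H3F3A siRNA, from 99 to 116 raw counts. It was the only tested member above 0, with a log2 fold change of 0.14 and an interval of -0.19 to 0.46 (edgeR adjusted p = 0.713). Its GC content was 49.1%, and the value with the GC trend removed was 0.13 (adjusted p = 0.797). P4HA3 had 1 count in H3F3A siRNA replicate 1 and 0 in the other libraries, where 0 counts allow up to 0.0971 to 0.103 CPM (3 counts, counting error only).

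**Figure D2:**
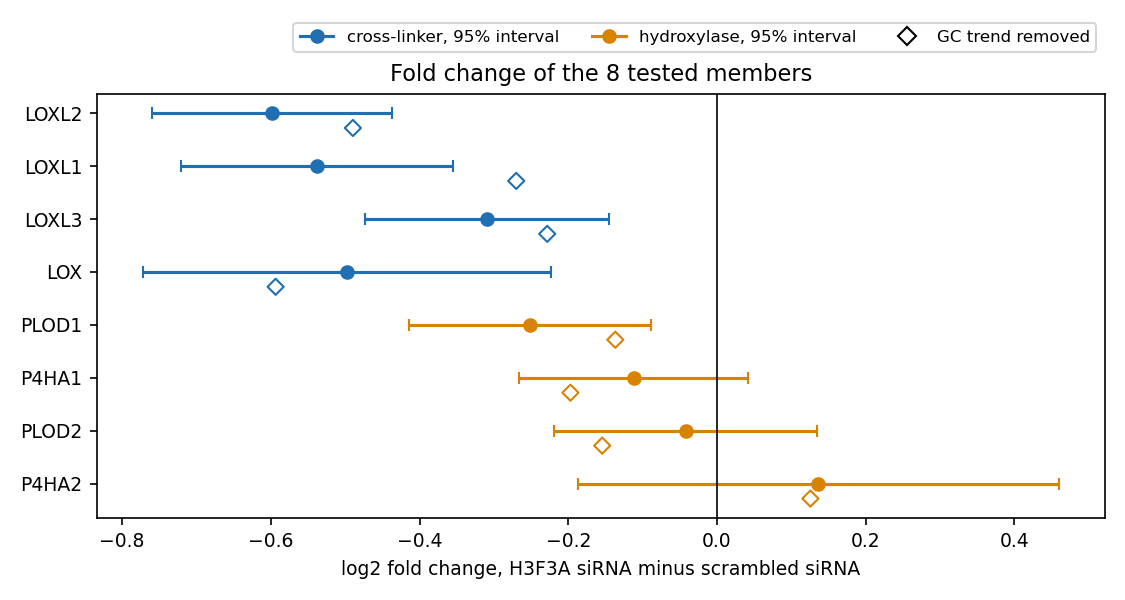
Log2 fold change of the 8 tested members (H3F3A siRNA minus scrambled siRNA, horizontal axis) with edgeR's 95% interval, and the value with each library's GC trend removed (open diamonds). The intervals of the 4 cross-linkers and of PLOD1 lie below 0, and removing the trend moves LOXL1 from -0.54 to -0.27 and LOX from -0.50 to -0.59.

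The groups did not overlap, with H3F3A siRNA lower, in all 4 tested cross-linkers and in 2 of 4 tested hydroxylases, PLOD1 and P4HA1. Over all genes tested, 17.1% showed that pattern, and 16% the opposite one, which P4HA2 showed. With the GC trend removed, 3 of 4 cross-linkers (LOX, LOXL1 and LOXL2) and none of 4 hydroxylases were called lower, against 1.41% of all genes. The medians were then -0.38 for cross-linkers and -0.15 for hydroxylases, so the distance between the classes was smaller than without it. The difference between the classes was not tested.

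**Figure D3:**
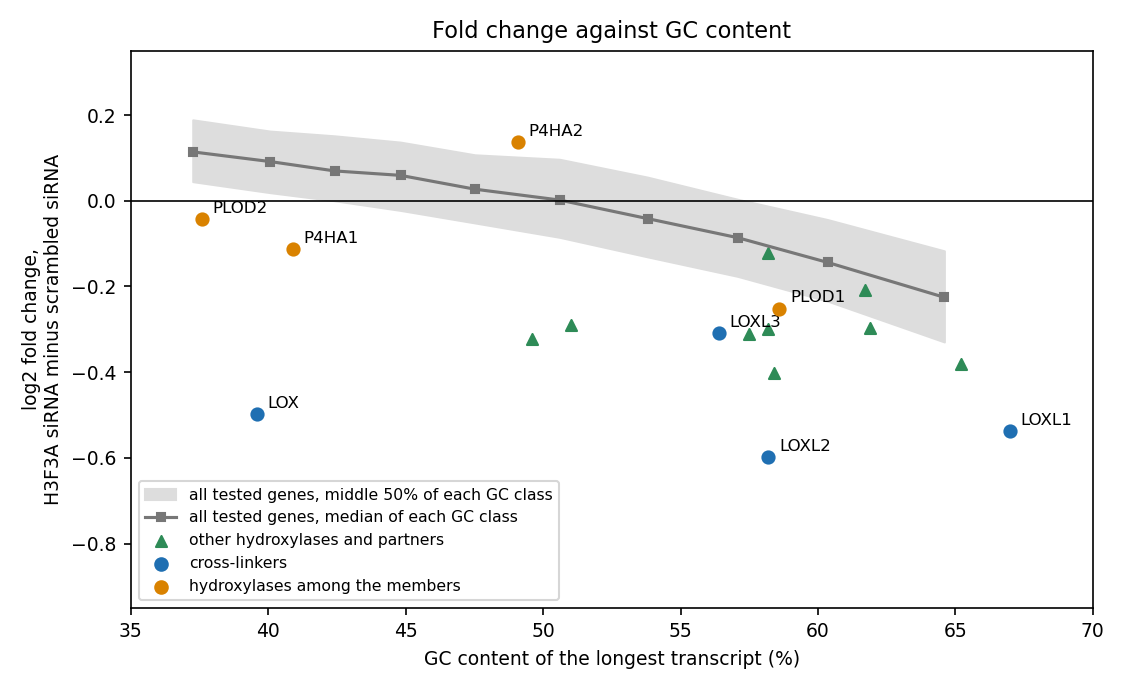
Log2 fold change (vertical axis) against GC content of the longest transcript in percent (horizontal axis). Shown are the members and 9 further endoplasmic reticulum genes (triangles), with COLGALT2, at under 1 CPM, not drawn. The line and band are the median and middle 50% in each of 10 GC classes of the 14377 tested genes with a GC value. The median falls from 0.11 to -0.23, and 7 of 8 members (all 4 cross-linkers, PLOD1, PLOD2 and P4HA1) lie below the middle 50% of their GC class, with P4HA2 above it. By definition, genes outside the middle 50% of a class lie in equal number below and above it.

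Levels between genes were compared per kilobase of the longest GENCODE transcript. In scrambled libraries PLOD1 was highest at 209 ± 21.4 CPM per kb (SD, n = 2), followed by LOXL2 at 125 ± 13.4, LOXL1 at 93.4 ± 16, P4HA1 at 30.4 ± 0.754, LOXL3 at 18.3 ± 0.939, PLOD2 at 7.73 ± 0.449, LOX at 1.63 ± 0.0113 and P4HA2 at 1.04 ± 0.0562 CPM per kb. LOXL4 was at 0.0557 CPM per kb and P4HA3 was listed at 0. Neighbours in this order down to P4HA2 differed by more than their SDs, with LOXL2 at 116 CPM per kb in scrambled replicate 3 and LOXL1 at 105 in scrambled replicate 1. With the median transcript length the order was the same except that P4HA2 came before LOX.

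Cross-linkers per hydroxylase were lower in all 3 H3F3A siRNA libraries than in both scrambled libraries. The per-length levels of the 5 cross-linkers summed to 260 and 217 CPM per kb in the scrambled libraries and to 163, 167 and 160 after H3F3A siRNA. Those of the 5 hydroxylases summed to 262 and 233 against 213, 209 and 213. Cross-linkers per hydroxylase were 0.993 and 0.930 in the scrambled libraries and 0.762, 0.799 and 0.748 after H3F3A siRNA. The groups did not overlap. Of single genes tested, 17.1% had all H3F3A siRNA libraries below both scrambled libraries in CPM, and a share for ratios of such sums was not computed. LOXL1 and LOXL2 made up 90.0% to 92.1% of the cross-linker sum and PLOD1 82.6% to 85.3% of the hydroxylase sum. The ratio thus rests mostly on these 3 genes. All of these levels are from the unstranded column, and none was corrected for the GC trend. A ratio with the trend removed was not computed. Removing it moved log2 fold changes of LOXL1 from -0.54 to -0.27, LOXL2 from -0.60 to -0.49 and PLOD1 from -0.25 to -0.14.

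**Figure D4:**
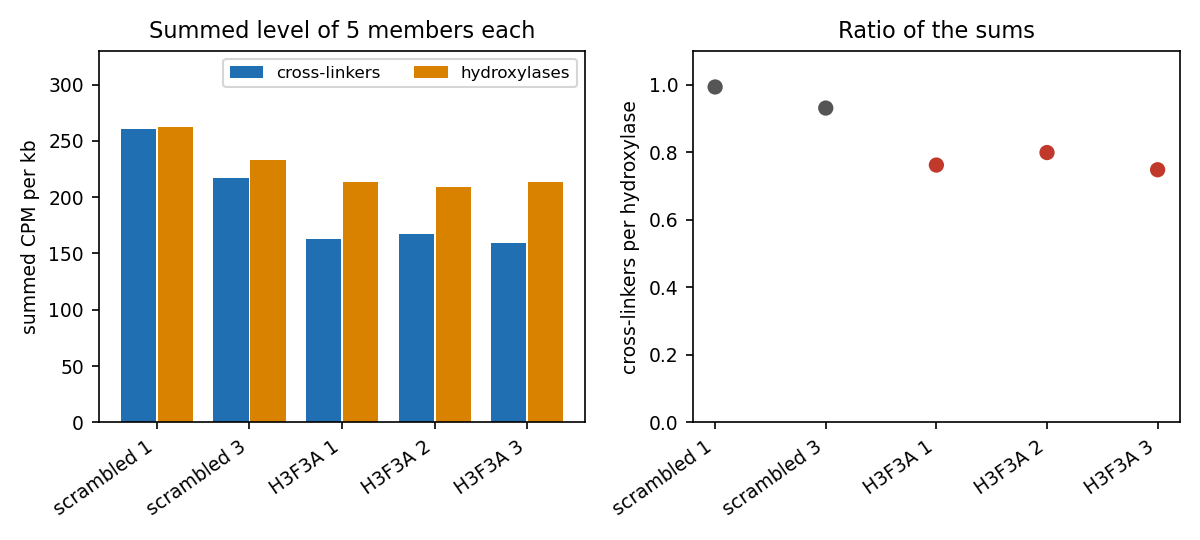
Summed CPM per kb of the 5 cross-linkers and the 5 hydroxylases in each library (left, bars from 0) and their ratio (right, points). The ratio, not corrected for the GC trend, is 0.993 and 0.930 in the scrambled libraries and 0.748 to 0.799 in the H3F3A siRNA libraries.

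Part of the reads of some members is not in the unstranded column, in which a read over exons of genes on opposite strands counts for neither. The unstranded count was 57.6% to 64.0% of the sum of both stranded columns for LOXL3, 72.5% to 75.6% for LOXL1, 82.7% to 87.2% for P4HA2, 87.2% to 89.2% for LOX and 92.5% to 93.2% for LOXL2, and 100% after rounding for P4HA1, PLOD1 and PLOD2. In GENCODE release 29, exons of HTRA2 and DOK1 on the opposite strand cover 14.3% and 4.95% of the exonic bases of LOXL3, and LOXL1-AS1 covers 9.21% of those of LOXL1. LOXL1-AS1 itself was at 8.23 and 8.72 CPM in scrambled and 9.85, 8.20 and 8.25 CPM in H3F3A siRNA libraries, and it was not called (log2 fold change 0.05, edgeR adjusted p = 0.879). With both stranded columns summed, an alternative chosen after seeing the data, the log2 fold changes of LOXL2, LOXL1 and LOX were -0.58, -0.54 and -0.50 and all were called, while LOXL3 was not called at -0.24 (adjusted p = 0.0787), against 2.59% of all genes called lower. In that sum LOXL1-AS1, whose row then shares reads with LOXL1, was called lower (log2 fold change -0.50, adjusted p = 0.0144), unlike in the unstranded column. The kit does not mark strand, so the source strand of the added reads cannot be told.

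Hydroxylation and the steps linked to it involve further subunits and enzymes of the endoplasmic reticulum, and falls were also called among these. Of 10 such genes tested, 6 were called lower, none higher and 4 were not called, and 9 lay below 0 (median log2 fold change -0.30, against 0.01 over all genes and 2.69% of all genes called lower). With the GC trend removed their median was -0.17. P4HB, protein disulfide isomerase and the beta subunit of prolyl 4-hydroxylase, stood at 1601 and 1342 CPM in scrambled and at 1132, 1098 and 1109 CPM in H3F3A siRNA libraries. Its 1.32-fold fall was called (edgeR adjusted p = 0.00832). None of the alpha subunits it pairs with was called.

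The prolyl 3-hydroxylase complex holds P3H1 and its partner CRTAP. CRTAP fell from 142 and 141 CPM to 117, 116 and 107 CPM (log2 fold change -0.32, edgeR adjusted p = 0.0187), and with the GC trend removed its value was -0.33 at a GC content of 49.6% (adjusted p = 0.0039). P3H1 had a log2 fold change of -0.31 (edgeR adjusted p = 0.0334), P3H3 of -0.38 (adjusted p = 0.00969) and P3H4, a scaffold of lysyl hydroxylation, of -0.30 (adjusted p = 0.0477). COLGALT1, which adds galactose to hydroxylysine, had -0.30 (adjusted p = 0.0294). With the GC trend removed, P3H3 (adjusted p = 0.184), P3H4 (adjusted p = 0.379) and COLGALT1 (adjusted p = 0.0586) were not called. In that fit 4 of the 10 genes were called lower (P4HB, P3H1, CRTAP and P3H2), against 1.41% of all genes. PLOD3, the lysyl hydroxylase that also carries glycosyltransferase activity, was not called (log2 fold change -0.21, adjusted p = 0.183, and -0.04 with the trend removed). Of these 10 genes, 0 were called lower without H3F3A siRNA replicate 1, 0 without replicate 2 and 2 without replicate 3. In the same fits 9, 153 and 253 of all genes were called lower. Without scrambled replicate 1, P4HB, P3H1, P3H3, P3H4 and COLGALT1 lost their calls and CRTAP kept its call. In that fit a lone scrambled library is the control.

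Of 15 collagen chaperones and export factors none was called (median log2 fold change -0.05, or -0.10 with the GC trend removed). For this list and those that follow, the share called lower over all genes tested was 2.69%, and 1.41% with the GC trend removed. The abundant chaperones HSPA5 and HSP90B1 had log2 fold changes of -0.19 (edgeR adjusted p = 0.19) and -0.09 (adjusted p = 0.577), and HSPA5 was called lower with the GC trend removed (log2 fold change -0.23, adjusted p = 0.0345). Of 7 tested procollagen proteinases and enhancers, ADAMTS2, which removes the amino propeptide, fell from 5.49 and 4.38 CPM to 2.65, 3.14 and 2.72 CPM (log2 fold change -0.80, edgeR adjusted p = 0.00832), a call that was lost without scrambled replicate 1 and without H3F3A siRNA replicate 1. The more abundant ADAMTS14 and BMP1 were not called, at -0.12 and -0.21, and the list's median was -0.18, or -0.10 with the GC trend removed.

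The substrates did not move as one. Of 10 tested fibrillar collagens and elastin, COL27A1, COL2A1 and COL1A1 fell and none rose, against 2.69% of all genes called lower. The list's median GC content was 60.7%, and 6.19% of genes in the GC class from 58.7% to 62.3% were called lower. The log2 fold changes of COL27A1, COL2A1 and COL1A1 were -0.42, -0.46 and -0.36 (edgeR adjusted p = 0.00358, 0.0101 and 0.041). The median log2 fold change of the list was -0.17. COL1A1 was not called with the GC trend removed, and the median was then -0.02. COL3A1 and COL5A1, the most abundant, were not called, at 0.02 and -0.22, and elastin (ELN) was at -0.03 (adjusted p = 0.928).

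Of 8 tested matrix partners of lysyl oxidases, EFEMP2, the fibulin that brings LOX to elastin, and the matricellular protein THBS1 fell (log2 fold changes -0.36 and -0.34, edgeR adjusted p = 0.0245 and 0.025), and none rose. EFEMP2 was not called with the GC trend removed (adjusted p = 0.205). FN1 and SPARC, the most abundant, were at -0.13 (adjusted p = 0.467) and -0.24 (adjusted p = 0.0927). SPARC was called lower with the GC trend removed (adjusted p = 0.0286) and MFAP4, a microfibril protein, higher in that fit (log2 fold change 0.31, adjusted p = 0.0212). The median of these partners was -0.24, and -0.18 with the trend removed. None of 7 genes of copper supply was called (median log2 fold change -0.01), with SLC31A1, the copper importer, at -0.03 and MEMO1 at -0.17.

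Of 12 tested targets of the hypoxia-inducible factors outside the members, VEGFA alone was called (log2 fold change -0.36, edgeR adjusted p = 0.014), 7 lay below 0, and the median was -0.16, or -0.06 with the GC trend removed. ENO1 and PGK1, glycolytic enzymes and the most abundant of them, were at -0.16 (adjusted p = 0.316) and 0.03 (adjusted p = 0.903). LDHA, a glycolytic enzyme of every cell, had 4 counts over all 5 libraries in the unstranded column, and did not pass the filter; where reads of that gene were counted was not tested. Without H3F3A siRNA replicate 1 none of COL27A1, COL2A1, COL1A1, EFEMP2, THBS1 and VEGFA was called, and without scrambled replicate 1 only COL27A1 and THBS1 were.

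The genes of most similar pattern were sought by the root mean square distance of centred log2 CPM over the 5 libraries, among the 9711 genes that averaged 8 CPM or more. Nearest to LOXL2 were S100A16 (distance 0.0356), EFHD2 (0.046) and the lysosomal protease CTSD (0.047). Nearest to LOXL1 were SH2B2 (0.0353), RGMA (0.0373) and TOR4A (0.0381), of which SH2B2 and TOR4A have GC contents of 68.3% and 67.5%, near its own 67.0%. LOX was nearest to LOC107985200 (0.0226), TMEM168 (0.0631) and MYL4 (0.0703), and LOXL3 to ZFP36L2 (0.0168), SLC66A2 (0.0173) and TSPAN18 (0.0191). These distances are over 5 libraries that share a group difference and a GC trend, and are given as a description.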

How the data were processed

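Poly-A RNA of 5 Rh41 libraries was sequenced from unstranded NEBNext Ultra libraries, per the labels' protocols. STAR 2.5, HTSeq 0.6.1, DESeq2, CASAVA, bcl2fastq and the hg19 build are listed in the submitters' processing notes, without roles. The authors deposited 1 table of unnormalized read counts a library, laid out as STAR writes gene tables. Column 2 (unstranded) was used. Some symbols also have numbered rows, such as CANX_1 beside CANX, one of the collagen chaperones listed. Genes were read by exact row name, so counts in such copies are not included. Whether any member has such a copy was not examined. The 4 summary lines name no gene and were left out; of all reads, 4.84% to 5.48% were unmapped, 6.28% to 6.42% mapped to several places, 9.17% to 10.2% lay on no feature and 4.45% to 4.56% were ambiguous.

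The test was edgeR 4.0.16 run under R 4.3.3 (filterByExpr with a minimum count of 10 and total of 15, TMM, glmQLFit with robust=TRUE, no covariate), which left 15859 genes. Standard errors were the log2 fold change divided by the root of F. GC content and length are those of the longest GENCODE release 29 transcript, matched by symbol for 27120 of 43714 gene rows. The GC trend of each library was a natural spline with 5 degrees of freedom over genes of at least 1 CPM, entered as an offset. Of the genes tested, 14377 had a GC value, and the others had no trend removed. DESeq2 1.42.0, limma 3.58.1, other scalings and filters, single stranded columns, a replicate block and fits without each library were alternatives. Named genes were H3F3A, H3F3B, all members, and of each list the called and the 2 most abundant genes, with P3H2, PLOD3, ELN, MFAP4 and LDHA added after their values were seen. The members and lists were chosen with earlier results of these data known.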

Additional observations from a re-analysis of the deposited data

How the results depend on the processing

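Over 19 alternatives LOXL2 was called in 19, LOXL1 in 17, LOXL3 in 10 and LOX in 7, and these 4 genes were below 0 in all of them. The number of cross-linkers called lower, 4, went to 2 in the first and 2 in the second stranded column and to 1 with the GC trend removed and scrambled replicate 1 left out, and it ran from 1 to 4 in the fits without 1 library. Hydroxylases called lower went from 0 to 1 with DESeq2 (PLOD1) and to 1 with the replicate block and the GC trend removed (P4HA1), and ran from 0 to 1 without 1 library. The replicate block alone moved neither count of members by more than 1 (LOX lost its call at edgeR adjusted p = 0.053). H3F3A siRNA replicate 2 has no scrambled library of its number, so in both block fits it adds nothing to the group difference. The labels do not say that a number marks a shared culture, and with 2 scrambled libraries, whose deviations from their mean mirror each other, the data cannot show whether the numbers pair the libraries.

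The median log2 fold change of cross-linkers moved from -0.52 to -0.38 with the GC trend removed, -0.35 with scrambled replicate 1 also left out and -0.39 with the replicate block and the GC trend removed. That of hydroxylases moved from -0.08 to -0.15, -0.13 and -0.15 under the same settings and to -0.0144 in the first stranded column, and ran from -0.122 to -0.0347 without 1 library. For cross-linkers it ran from -0.60 to -0.42 without 1 library. Of all genes, 427 were called lower and 80 higher; with the GC trend removed 224 were lower, with scrambled replicate 1 also left out 52 were lower and 17 higher, with no filter 153 were higher, with limma-voom 52 were higher, and with the replicate block and the GC trend removed 347 were higher. Without 1 library the count lower ran from 9 to 1737 and the count higher from 6 to 744. In the fits without a scrambled library the lone control is assumed to vary like the other group. The sign of PLOD2 reversed in the first stranded column (0.0764), and without 1 library its log2 fold change ran from -0.103 to 0.0179, the latter without scrambled replicate 3. That of H3F3B, near 0, reversed with no filter (0.00305), a minimum count of 50 (0.00887), upper-quartile scaling (0.0195), the first and second stranded columns (0.00774 and 0.0178), their sum (0.00894), the GC trend removed with scrambled replicate 1 left out (0.00324) and the replicate block (0.0212), and it ran from -0.0356 to 0.0256 without 1 library. Low counts limit LOX, P4HA2, LOXL4 and P4HA3.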
